A study of Mus musculus with 6 samples.

Results

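Matricellular proteins are secreted into the extracellular matrix, where they adjust how cells attach to it and how growth factors reach them, rather than forming its scaffold. Osteoblasts, the cells that build bone, place several of them in the collagen-rich matrix that later mineralises. The set described here holds 6 such genes, Sparc, Postn, Mgp, Tnc, Ccn2 and Ccn5, of the 8588 genes tested on the arrays. The genes were chosen by name, and each was read by the 1 probe that carried its symbol alone in GEO's platform annotation, so no gene had several probes to compare. Their NCBI gene identifiers are 20692 for Sparc, 50706 for Postn, 17313 for Mgp, 21923 for Tnc, 14219 for Ccn2 and 22403 for Ccn5.

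The arrays measured total RNA of 2T3 cells, an immortalised line of mouse pre-osteoblasts, and the series title asks how simulated microgravity affects their differentiation and gene expression. In the simulated microgravity group, 3 samples were grown in OptiCells, closed culture cassettes with gas-permeable walls, and turned on a Random Positioning Machine, which keeps reorienting them so that gravity has no lasting direction. In the static group, 3 samples were grown in the same cassettes without it. The line is known to derive from skull bone of transgenic mice that carry a viral T antigen under a BMP2 promoter, so all 6 samples are of that 1 immortalised line. The sources used here do not give the length of exposure or the medium.

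Each array carried 10337 to 10432 values. The arrays microgravity 2 and static 2 stood apart from the other arrays of their groups in their dim probes, with 6.44% and 9.16% of values at or below 0.1 of the array median, against 17.1% to 19.8% on the other 4 arrays. They also had the most empty cells, 163 and 134, against 68 to 75. Of 12 osteoblast markers, 8 were tested, all 8 had lower values in simulated microgravity, and 3 fell (Pth1r, Alpl and Omd, limma adjusted p = 0.0194 to 0.0295), against 0.198% of all genes. With any 1 of the 6 arrays left out 0 probes on the arrays passed. Ibsp and Dlx5 changed little (log2 change -0.05 and -0.03), and the groups overlapped for Col1a1 and Cdh11. The summed level of these 8 was 45.8 to 87.1 times the array median in simulated microgravity and 155.5 to 209.7 in static cells. Within this sum Omd alone averaged 14.1 in simulated microgravity and 76.8 in static cells. In RNA from a whole culture, fewer cells of a type and less RNA per cell cannot be told apart. Marker lists of 5 other cell types had 0 members past the threshold. Group means above the array median in both groups were found for 0 of 7 skeletal muscle, 0 of 7 endothelial and epithelial, 0 of 6 cartilage, 1 of 5 macrophage and osteoclast and 3 of 4 adipocyte markers. In the macrophage and osteoclast list Lyz2 averaged 2.32 ± 0.218 in simulated microgravity and 2.52 ± 0.463 in static cells, and Calcr 1.21 ± 0.348 in simulated microgravity and 0.901 ± 0.290 in static cells, while Ptprc, the general blood cell marker, averaged at most 0.0693 in either group. The summed level of this list was 3.42 to 4.16 times the array median in simulated microgravity and 3.48 to 3.97 in static cells. Of the adipocyte markers, Adipoq averaged at most 0.110 in either group, while the fatty acid carrier Fabp4 averaged 26.5 ± 1.57 in simulated microgravity and 26.1 ± 4.35 in static cells (SD, n = 3 each). The adipocyte marker Lpl had 9.89 ± 1.56 in simulated microgravity and 16.9 ± 0.804 in static cells (limma adjusted p = 0.109). The part of the marker shift in the values below was not tested.

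Start-site sequences of 3 of the 6 genes, Sparc, Postn and Tnc, could be matched by gene identifier in RefSeq's promoter table. These 3 are shown because no window was found for Mgp, Ccn2 or Ccn5, so their values played no part in the choice. Each window runs from 250 bases before to 50 bases after an annotated start on the gene's own strand, 5′ to 3′, in build GRCm38.p6. Capitals mark matches on either strand to the core promoter element TATAAA, the AP-1 motif TGANTCA, the TEAD motif GGAATG, the SMAD box CAGAC and the Sp1 motif GGGCGG. Postn and Tnc each have 2 annotated starts, and the downstream start is printed. The Sparc window lies at chr11:55420031-55420330 on the minus strand, the Postn window at chr3:54360857-54361156 on the plus strand and the Tnc window at chr4:64046887-64047186 on the minus strand.
Sparc: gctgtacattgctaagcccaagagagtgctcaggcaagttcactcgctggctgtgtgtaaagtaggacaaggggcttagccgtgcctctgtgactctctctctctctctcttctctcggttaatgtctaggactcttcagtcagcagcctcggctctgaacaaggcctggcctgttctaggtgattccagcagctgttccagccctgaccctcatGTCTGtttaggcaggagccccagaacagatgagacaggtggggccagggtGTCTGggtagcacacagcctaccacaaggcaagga
Postn: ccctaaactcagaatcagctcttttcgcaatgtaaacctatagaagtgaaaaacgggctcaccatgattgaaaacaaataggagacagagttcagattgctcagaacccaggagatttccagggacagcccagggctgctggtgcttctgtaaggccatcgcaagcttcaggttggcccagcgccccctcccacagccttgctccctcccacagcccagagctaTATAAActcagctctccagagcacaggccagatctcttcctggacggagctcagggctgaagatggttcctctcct
Tnc: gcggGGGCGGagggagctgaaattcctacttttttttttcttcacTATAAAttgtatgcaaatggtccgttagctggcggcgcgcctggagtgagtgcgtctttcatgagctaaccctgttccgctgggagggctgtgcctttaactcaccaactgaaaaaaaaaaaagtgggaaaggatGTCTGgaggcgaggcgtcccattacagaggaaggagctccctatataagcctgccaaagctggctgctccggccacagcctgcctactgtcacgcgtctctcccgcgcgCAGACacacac
In these letters, Postn holds TATAAA with its first base 26 bases before the start, the only listed motif in its printed window. Tnc holds TATAAA 205 bases before the start, GGGCGG 246 bases before it and CAGAC 70 bases before it on the opposite strand and 39 bases after it. Only exact letters are marked. The near match tatataag of Tnc, between the CAGAC match before the start and the start itself, therefore stands in small letters. Sparc holds CAGAC on the opposite strand, 35 bases before and 15 bases after the start. Of all 32851 windows of 300 bases in the table, 13.6% held TATAAA, 49.6% CAGAC and 35.7% GGGCGG. The motifs TGANTCA and GGAATG, held by 7.81% and 14.7% of all windows, were in none of the 5 windows of these 3 genes. Letter matches describe these windows and do not show that a factor binds.

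In simulated microgravity 5 of the 6 genes had lower values than in static cells, and Ccn2 alone had higher values. Levels are given as multiples of the array median, with SD over 3 arrays. Ratios and log2 changes set simulated microgravity over static on the log2 scale, with the standard error (SE) of the limma fit, so a ratio can differ slightly from the quotient of the linear means beside it. The log2 changes ran from -0.96 (Postn) to 0.78 (Ccn2), with a median of -0.80 for the 6 genes and 0.05 for all 8588 genes. None of the 6 passed the threshold (0 at a limma adjusted p under 0.05), where 0.276% of the 10146 probes tested did. At an unadjusted p under 0.05 stood 5 of the 6, against 10.8% of probes, and the groups did not overlap in 5 of the 6, against 15.7% of probes. By direction, 4 did not overlap on the lower side (7.57% of probes) and 1 on the higher side (8.11% of probes). Since the genes were chosen with earlier results of these arrays known, these shares describe the set and are no evidence for it. Whether replicates were separate cultures is not stated in the labels, so a p-value here reflects replicate spread that may be technical.

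**Figure D1:**
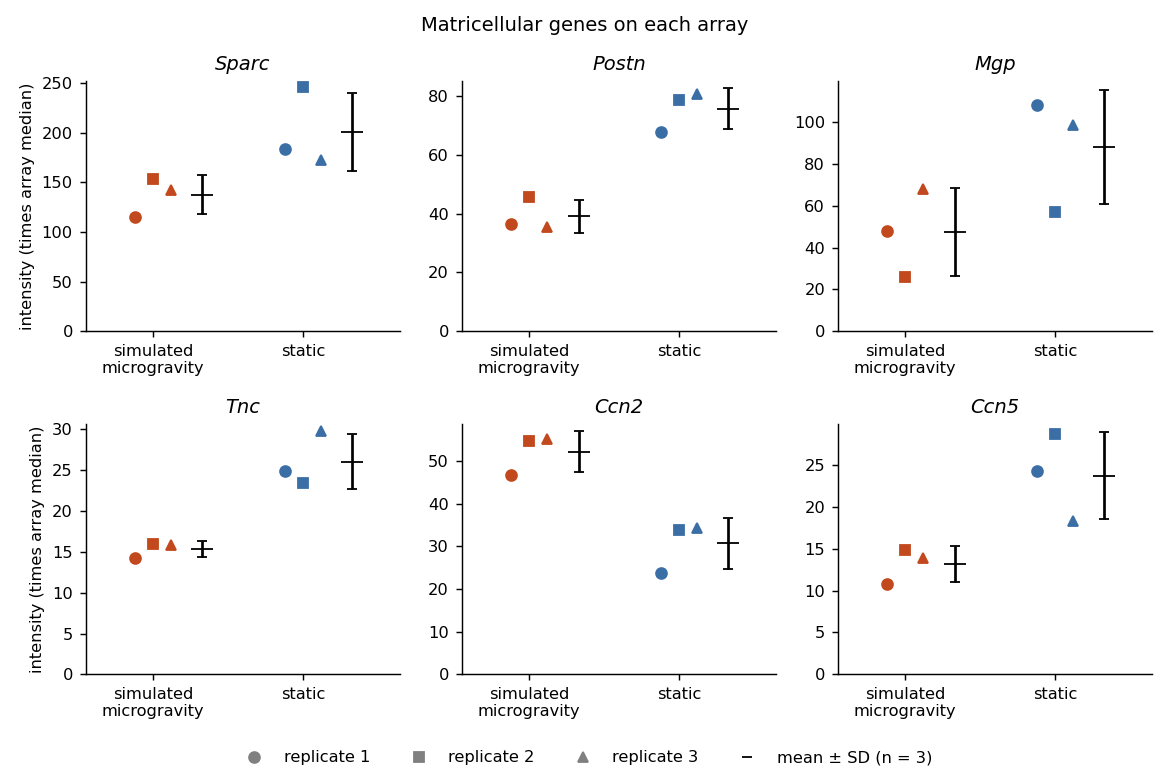
Intensity of Sparc, Postn, Mgp, Tnc, Ccn2 and Ccn5 on each of the 6 arrays, in multiples of the array median, with simulated microgravity at left and static at right of each panel. Symbols are single arrays by replicate number and bars are mean ± SD (n = 3). The groups overlap for Mgp alone, and Ccn2 is the one gene whose microgravity arrays lie above the static arrays.

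Sparc encodes osteonectin, an abundant bone matrix protein that binds collagen and calcium. Its probe read 116, 154 and 143 times the array median on microgravity 1, 2 and 3, and 184, 246 and 173 on static 1, 2 and 3. Every microgravity array was below every static array, by a narrow margin (the lowest static value was 1.12 times the highest microgravity value). The means were 137 ± 19.7 in simulated microgravity and 201 ± 39.3 in static cells, a ratio of 0.688 (log2 change -0.54, SE 0.23, 95% interval -1.08 to -0.00372, limma adjusted p = 0.457). The unadjusted p of 0.0488 became 0.0526 to 0.143 on leaving out any 1 of the 6 arrays. Sparc was near the top of the scale, with 22 to 47 probes brighter on the microgravity arrays and 4 to 15 brighter on the static arrays, and no saturation call was used here.

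Postn encodes periostin, which binds integrins and type I collagen and is known from periosteum and other collagen-rich tissue under load. It read 36.5, 45.6 and 35.3 on microgravity 1, 2 and 3, and 67.6, 78.8 and 80.5 on static 1, 2 and 3. The lowest static array was 1.48 times the highest microgravity array, the widest gap among the 5 genes lower in simulated microgravity. The means were 39.1 ± 5.61 in simulated microgravity and 75.7 ± 6.99 in static cells, and the ratio was 0.515 with a 95% interval of 0.389 to 0.683 (log2 change -0.96, SE 0.17). Its limma adjusted p of 0.0930 was the smallest of the 6 genes, and its unadjusted p had rank 98 among the 10146 probes. With array weights, a limma setting that counts each array by its estimated precision, Postn passed at a log2 change of -1.02 (limma adjusted p = 0.0458), a setting in which 1.13% of all probes passed.

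Tnc encodes tenascin C, a large glycoprotein that loosens cell attachment to fibronectin and appears in remodelling and loaded connective tissue. It read 14.2, 16.0 and 15.9 on microgravity 1, 2 and 3, and 24.9, 23.4 and 29.8 on static 1, 2 and 3. The microgravity arrays lay within 1.12-fold of each other and the static arrays within 1.27-fold, and the groups were 1.47-fold apart at their nearest arrays. The means were 15.3 ± 0.993 in simulated microgravity and 26.0 ± 3.36 in static cells, and the ratio was 0.591 (log2 change -0.76, SE 0.15, 95% interval -1.11 to -0.41), with a limma adjusted p of 0.109. This SE was the smallest among the 6 genes. With array weights Tnc also passed, at a log2 change of -0.87 (limma adjusted p = 0.0484).

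Mgp encodes matrix Gla protein, a small protein that needs vitamin K for its carboxylation and keeps soft tissue and cartilage from calcifying. It read 48.1, 26.0 and 67.9 on microgravity 1, 2 and 3, and 108, 57.0 and 98.9 on static 1, 2 and 3. The groups overlapped, since microgravity 3 lay above static 2. Array 2 was the lowest of its group in both groups, and the arrays of a group spanned 2.62-fold in simulated microgravity and 1.90-fold in static cells, the widest spans of the 6 genes. The means were 47.3 ± 21.0 in simulated microgravity and 88.0 ± 27.3 in static cells, and the ratio on the log2 scale was 0.518, close in size to that of Postn, but with a wider 95% interval, 0.266 to 1.01 (log2 change -0.95, SE 0.41). Its limma adjusted p was 0.474.

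The arrays microgravity 2 and static 2 are those that stood apart in their dim probes, and Mgp was low on both while Sparc and Ccn5 were highest of their groups on both. Their part in these values was not tested. With both left out, the remaining Mgp values did not overlap, and the log2 change was -0.86 (limma adjusted p = 0.438). Without microgravity 2 alone it was -0.57, and without microgravity 3 alone -1.26. For Sparc the log2 change without both arrays was -0.47, for Postn -1.04, for Tnc -0.86, for Ccn2 0.83 and for Ccn5 -0.78.

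**Figure D2:**
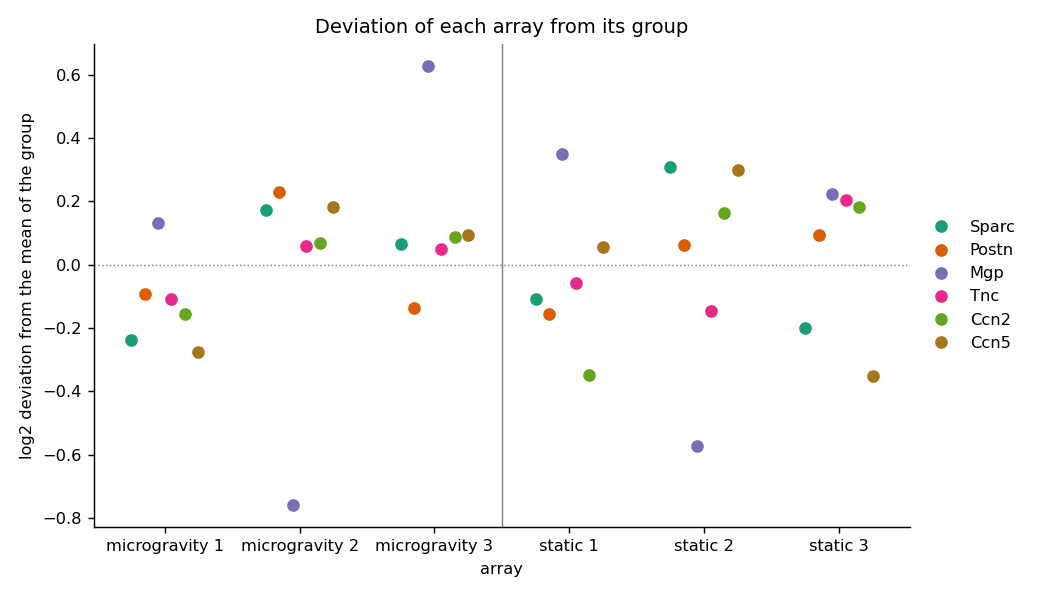
Log2 deviation of each array from the mean of its own group for the 6 genes, with the 3 microgravity arrays at left and the 3 static arrays at right. Mgp has the widest deviations, -0.76 on microgravity 2, 0.63 on microgravity 3 and -0.57 on static 2. On microgravity 2 and static 2 the other 5 genes lie between -0.15 and 0.31.

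Ccn2 and Ccn5 belong to the CCN family of secreted proteins, whose members share an order of domains that bind growth factors, integrins and heparan sulphate. Ccn2 encodes connective tissue growth factor, which TGF-beta and the YAP and TAZ coactivators are known to induce. Ccn5, formerly Wisp2, lacks the C-terminal cystine knot domain of its relatives and was described as a Wnt-inducible gene. Ccn2 read 46.7, 54.7 and 55.3 on microgravity 1, 2 and 3, and 23.8, 33.9 and 34.4 on static 1, 2 and 3. All 3 microgravity arrays were above the static arrays, and the nearest arrays were 1.36-fold apart. The means were 52.2 ± 4.77 in simulated microgravity and 30.7 ± 5.99 in static cells, a ratio of 1.72 with a 95% interval of 1.25 to 2.37. The log2 change was 0.78 with an SE of 0.19, and the limma adjusted p was 0.182.

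Ccn5 went the other way in its values. It read 10.8, 14.8 and 13.9 on microgravity 1, 2 and 3, and 24.2, 28.7 and 18.3 on static 1, 2 and 3, again with no overlap. The means were 13.2 ± 2.12 in simulated microgravity and 23.7 ± 5.22 in static cells, a ratio of 0.559 with a 95% interval of 0.392 to 0.797. The log2 change was -0.84 with an SE of 0.22, and the limma adjusted p was 0.191. The ratio of Ccn2 to Ccn5 within an array, which does not depend on how arrays are scaled to each other, was 4.34, 3.70 and 3.98 on microgravity 1, 2 and 3, and 0.983, 1.18 and 1.88 on static 1, 2 and 3. Only its difference between groups can be read, because 2 probes need not respond alike to their targets. That difference was 1.62 on the log2 scale, or 3.08-fold, and the groups had to separate in it, because Ccn2 and Ccn5 had each separated in opposite directions.

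Of the CCN family 5 genes were measured. Ccn3, an antiproliferative relative also known from cartilage and bone, had 9.41, 6.32 and 7.38 on microgravity 1, 2 and 3, and 12.2, 10.3 and 19.7 on static 1, 2 and 3. Its groups did not overlap, and its ratio was 0.562 (log2 change -0.83, SE 0.28, limma adjusted p = 0.322). Ccn1 and Ccn4 are named after their values were seen. Ccn1, which like Ccn2 is known as a YAP and TAZ target, overlapped between groups at 29.3 ± 5.83 in simulated microgravity and 24.5 ± 5.57 in static cells (log2 change 0.27, 95% interval -0.29 to 0.82, limma adjusted p = 0.857). Ccn4, a Wnt-inducible member, was close to the array median, at 1.04 ± 0.237 in simulated microgravity and 1.16 ± 0.144 in static cells (log2 change -0.17, 95% interval -0.73 to 0.40, limma adjusted p = 0.907). The values of this family thus lay on both sides, with Ccn2 and Ccn1 above and Ccn3, Ccn4 and Ccn5 below those of static cells, and 0 of the 5 passed the threshold.

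**Figure D3:**
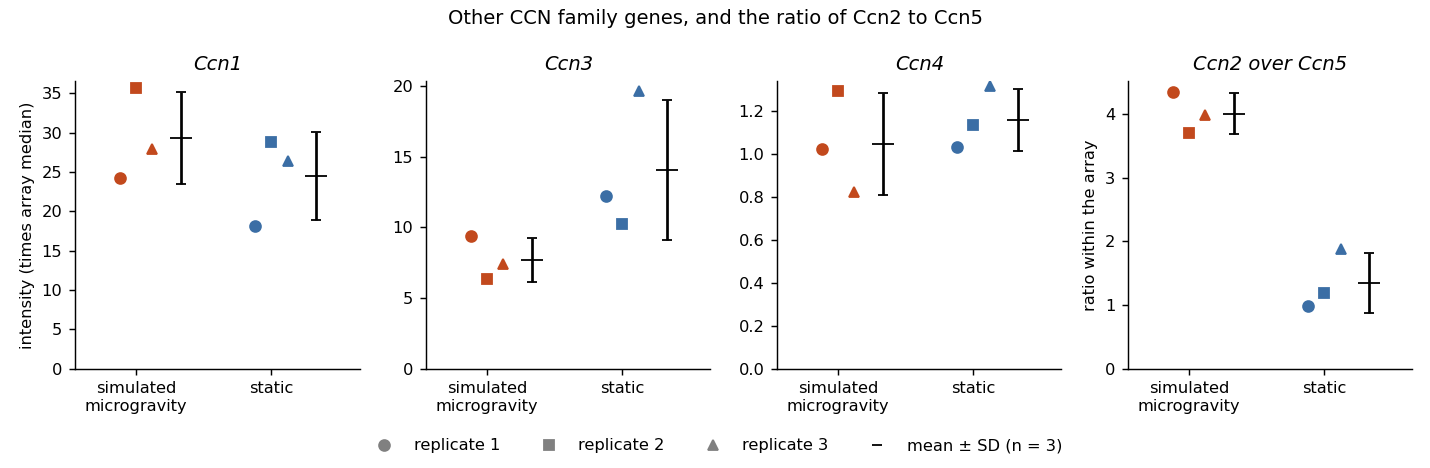
Intensity of Ccn1, Ccn3 and Ccn4 on each array, in multiples of the array median, and the ratio of Ccn2 to Ccn5 within each array, with simulated microgravity at left and static at right of each panel. Symbols are single arrays by replicate number and bars are mean ± SD (n = 3). The ratio is 3.70 to 4.34 on the microgravity arrays and 0.983 to 1.88 on the static arrays.

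**Figure D4:**
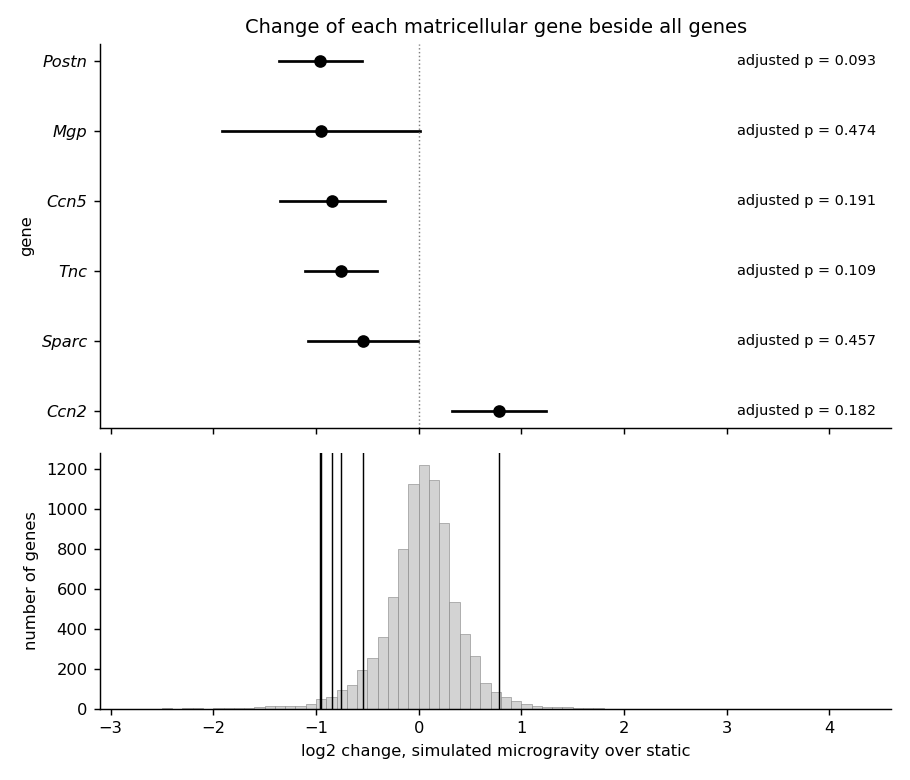
Top, log2 change of each of the 6 genes in simulated microgravity over static (points) with the 95% interval of the limma fit (lines) and the limma adjusted p. Bottom, the number of genes by log2 change for all 8588 genes, with the 6 genes as vertical lines. The intervals of Postn, Tnc, Ccn5 and Ccn2 lie clear of 0, that of Sparc ends at -0.00372 and that of Mgp crosses 0.

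Likeness between genes was measured over the 6 arrays as the mean absolute difference of log2 values after each gene was centred on its own mean, among 4481 bright genes with a value above the floor on every array. It is a description, because the arrays share their groups and any gene with a similar group difference scores well. Postn and Tnc were close to each other, at 0.126, and 13 genes were closer to either of them. Sparc and Ccn5 differed by 0.15, with 156 genes closer to Sparc and 52 closer to Ccn5. Of the other 5, Tnc was the nearest to Mgp, at 0.415 with 241 genes closer, and Postn (0.541), Sparc and Ccn5 (both 0.605) were also nearer than the median of 0.613 from Mgp over all these genes. Ccn2 was 0.661 to 0.870 from the other 5, against a median of 0.409 from Ccn2 over all these genes.

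The nearest genes to Postn were Plxdc2, Smtn and Maged1 (0.0559 to 0.0770). To Tnc they were Cirbp, the collagen-binding proteoglycan gene Dcn, and Serping1 (0.0864 to 0.0963), and to Sparc they were Pcbd2, Tmed3 and Nenf (0.0350 to 0.0524). Gpx7, Pnkd and Psmb9 were nearest to Ccn5 (0.0397 to 0.0750), and Exosc1, the cystine transporter gene Slc7a11 and Mak16 to Ccn2 (0.0529 to 0.0750). Nearest to Mgp were Cenpp, Vkorc1 and Tnfsf10 (0.0956 to 0.130). These 18 genes had limma adjusted p-values of 0.0817 to 0.596, so 0 of them passed the threshold.

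Vkorc1 encodes the enzyme that recycles vitamin K, and it stands both among the genes nearest to Mgp and in the list of vitamin K and carboxylation genes. It read 6.81, 3.32 and 8.97 on microgravity 1, 2 and 3, and 16.4, 8.88 and 15.3 on static 1, 2 and 3. Like Mgp it was lowest on array 2 of both groups, and its groups overlapped at microgravity 3 and static 2 (ratio 0.450, log2 change -1.15, SE 0.41, limma adjusted p = 0.363). Of the 10 vitamin K genes measured, 0 passed, 6 had lower values and the median log2 change was -0.21. Ggcx, the carboxylase itself, had 1.42, 2.10 and 0.936 on microgravity 1, 2 and 3, and 2.01, 2.41 and 2.19 on static 1, 2 and 3 (limma adjusted p = 0.549). Gas6, a secreted ligand that is itself carboxylated, had 1.29 ± 0.410 in simulated microgravity and 3.30 ± 1.00 in static cells, with no overlap (log2 change -1.36, SE 0.33, limma adjusted p = 0.174).

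Other matricellular genes did not share the lower values as a group. Of 22 measured, 0 passed, 12 had lower and 10 higher values, and the median log2 change was -0.05, against 0.05 for all genes. Only 10 of the 22 had group means above the array median in both groups. The 6 genes of the set were above it on every array, so the 2 lists differ in brightness. The groups did not overlap in 3, all lower (background 8.07% of genes), and these were Ccn3, Thbs3 and Sparcl1. Thbs3, a thrombospondin, read 2.20, 2.34 and 2.65 on microgravity 1, 2 and 3, and 4.30, 4.16 and 3.91 on static 1, 2 and 3 (ratio 0.581, limma adjusted p = 0.0985). Sparcl1, the closest relative of Sparc in the list, was dim, at 0.461 ± 0.0437 in simulated microgravity and 0.708 ± 0.0481 in static cells (limma adjusted p = 0.322).

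Among 24 partners in the matrix, which hold collagen chains, cross-linking enzymes and microfibril genes, 0 passed, 16 had lower values and the median log2 change was -0.27. Their summed level was 424.6 to 495.9 times the array median on the microgravity arrays and 547.6 to 714.8 on the static arrays. Col6a1, a chain of collagen VI, read 23.3, 26.0 and 18.9 on microgravity 1, 2 and 3, and 36.5, 50.6 and 44.7 on static 1, 2 and 3 (ratio 0.518, limma adjusted p = 0.115). Pcolce, which enhances procollagen cleavage, had 80.3 ± 25.4 in simulated microgravity and 155 ± 39.3 in static cells (limma adjusted p = 0.292). Col1a2, the partner chain of type I collagen to which Sparc and periostin bind, had 20.5 ± 7.50 in simulated microgravity and 47.5 ± 19.5 in static cells (log2 change -1.20, SE 0.42, limma adjusted p = 0.363).

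Integrins and other receptors of these proteins numbered 23, of which 0 passed, 10 had lower and 13 higher values, with a median log2 change of 0.07. Sdc2, the heparan sulphate proteoglycan syndecan 2, read 6.89, 9.59 and 8.68 on microgravity 1, 2 and 3, and 16.6, 17.7 and 14.7 on static 1, 2 and 3 (ratio 0.509, limma adjusted p = 0.0915). Sdc2 passed with quantile normalization, cyclic loess normalization and array weights (limma adjusted p = 0.0393 to 0.0498). In these settings 54, 57 and 115 probes passed over the whole table. Sdc2 did not pass in the main fit or in any other alternative processing, including those with arrays left out. The integrin chain Itga8 had values near the floor, 0.107 ± 0.00485 in simulated microgravity and 0.171 ± 0.0223 in static cells (limma adjusted p = 0.133), and the integrin-linked kinase Ilk had 11.0 ± 3.03 in simulated microgravity and 16.6 ± 3.86 in static cells (limma adjusted p = 0.456).

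Ccn2 is known as a target of TGF-beta and of YAP and TEAD, and genes of both pathways were read. Of 26 TGF-beta and BMP genes, 0 passed, 13 had lower and 13 higher values, and the median log2 change was -0.02. Tgfb1, the ligand, had values on 2 arrays of each group, since its cells on microgravity 2 and static 2 were empty and the fit dropped them. It read 1.30 and 1.60 on microgravity 1 and 3, and 0.397 and 0.548 on static 1 and 3 (ratio 3.09, log2 change 1.63, SE 0.32, limma adjusted p = 0.174). The co-receptor Eng had 2.36 ± 0.313 in simulated microgravity and 1.64 ± 0.162 in static cells, and the repressor Tgif1 12.7 ± 1.29 in simulated microgravity and 9.32 ± 1.44 in static cells (limma adjusted p = 0.347 and 0.383).

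Of 23 genes in the list of YAP, TEAD and SRF factors, their regulators and their targets, 0 passed, 18 had higher values and 5 lower, with a median log2 change of 0.24 against 0.05 for all genes. The groups did not overlap in 4 on the higher side (background 8.51% of genes) and 2 on the lower side (background 8.07% of genes). Gadd45a, a DNA damage response gene, read 55.0, 43.1 and 55.8 on microgravity 1, 2 and 3, and 21.2, 30.2 and 12.5 on static 1, 2 and 3 (ratio 2.54, limma adjusted p = 0.173). Lats2, a kinase of the Hippo pathway, had 7.43 ± 0.825 in simulated microgravity and 4.78 ± 0.796 in static cells (limma adjusted p = 0.212), and the phosphatase Ptpn14, dim in both groups, had 0.302 ± 0.0381 in simulated microgravity and 0.669 ± 0.0609 in static cells (limma adjusted p = 0.0985).

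Mgp is an inhibitor of calcification, and 9 other genes of calcification and phosphate handling were measured. Alpl encodes the alkaline phosphatase that frees phosphate for mineral. It was the 1 gene to pass of 134 distinct genes measured in the 7 lists, where 0.276% of all probes tested passed. Alpl had 0.599 ± 0.0847 in simulated microgravity and 2.85 ± 0.513 in static cells (log2 change -2.25, SE 0.22, limma adjusted p = 0.0295). With any 1 of the 6 arrays left out, Alpl did not pass. Of the other 8, 6 had higher values, and the median over the list was 0.19. Slc20a1, a phosphate importer, read 8.38, 9.39 and 7.74 on microgravity 1, 2 and 3, and 3.76, 5.91 and 5.68 on static 1, 2 and 3 (ratio 1.69, limma adjusted p = 0.222). Fetub, a relative of the calcification inhibitor fetuin A, had 1.03 ± 0.112 in simulated microgravity and 0.713 ± 0.141 in static cells (limma adjusted p = 0.482).

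**Figure D5:**
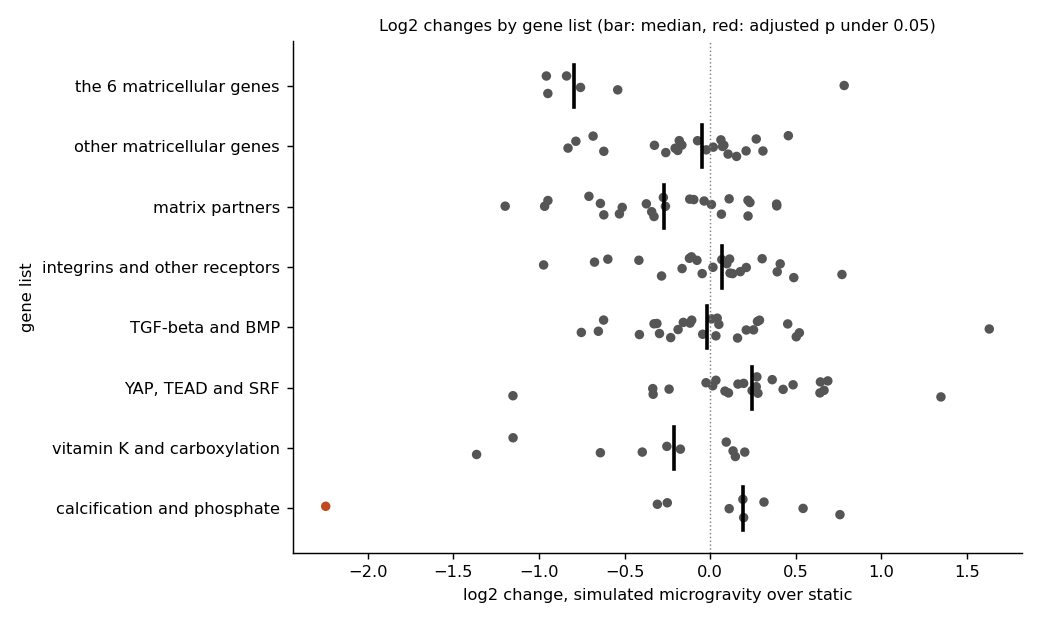
Log2 change in simulated microgravity over static of each measured gene, by list, with the 6 matricellular genes in the top row and the 7 other lists below. Bars are the median of a list, and red marks a limma adjusted p under 0.05, which Alpl alone reached. Of the 6 genes 5 lie at -0.54 or below, while the other matricellular genes are centred at -0.05.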

How the data were processed

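The deposited values are linear intensities of 10500 probes on 6 arrays. The authors' scaling is not stated in the sources used, and the array medians lay between 0.908 and 0.927. Values were divided by the median of their array, raised to 0.1 where lower, and put on the log2 scale. Probes at this floor or empty on every array, or measured fewer than 2 times in a group, were removed (354), leaving 10146. Groups were compared with limma 3.58.1 in R 4.3.3 (lmFit, eBayes with an intensity trend, 2-sided, Benjamini-Hochberg over the 10146 probes, threshold 0.05). The fit was also run on simulated data with independent normal noise and no empty cells. That run does not cover empty cells or differences between arrays such as those seen here. Of the probes 8983 had 1 symbol, 1 had several and 1516 had none. A gene was its brightest probe. Ratios and log2 changes compare means on the log2 scale, while group means are linear with SD over 3 arrays. The number of arrays limits the precision.

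The members and lists were chosen with earlier results of these data known. Genes named from a list were those past the threshold and the 3 with the smallest p, and the 3 genes most alike to each member. Other genes are said to be named after their values were seen, and the markers named were taken from their fixed lists.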

Additional observations from a re-analysis of the deposited data

How the results depend on the processing

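All 6 genes kept their direction in all 18 alternatives, which for the 5 genes with separate groups says little where arrays were left out. The log2 change ranged over them from -0.64 to -0.39 for Sparc, -1.07 to -0.89 for Postn, -1.26 to -0.57 for Mgp, -0.87 to -0.66 for Tnc, 0.61 to 0.87 for Ccn2 and -1.02 to -0.69 for Ccn5. With array weights 2 of the 6 passed, Postn at -1.02 and Tnc at -0.87 (limma adjusted p = 0.0458 and 0.0484), against 1.13% of all probes, and under the other 17 alternatives 0 did. Over all alternatives the limma adjusted p ranged from 0.227 to 0.761 for Sparc, 0.0458 to 0.361 for Postn, 0.235 to 0.803 for Mgp, 0.0484 to 0.376 for Tnc, 0.0989 to 0.510 for Ccn2 and 0.0807 to 0.517 for Ccn5.

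The 28 probes past the threshold over the whole table became 54 with quantile normalization, 57 with cyclic loess normalization, 53 with the floor at 0.05 of the median, 59 with no floor, 59 and 54 with the dimmest 25% and 50% of probes left out, and 115 with array weights. They were 0 with the replicate number as a block, 0 without static 2 and microgravity 2 together, and 0 to 0 with any 1 array left out (limma, with an unadjusted p under 0.05 for 761 to 968 probes, and 938 and 848 with the block and without both arrays). The 1 list gene past the threshold (Alpl) became 2 with quantile normalization, cyclic loess normalization or array weights, by adding Sdc2, and 0 with the block, without both arrays, or with any 1 array left out. The cause of these changes was not tested. Fits with arrays left out also held fewer arrays, and the part of that was not tested either. The ratio of Ccn2 to Ccn5 differed by 1.42 to 1.89 on the log2 scale with any 1 array left out. Scaling moved the median log2 change of all probes by at most 0.04. No member had another probe, so that alternative was not run. Replicate numbers are shared by the groups. Deviations from the group mean of same-numbered arrays correlated at -0.21, 0.46 and -0.18 over 9944 probes, and those of differently numbered arrays at -0.45 to 0.66. Positive values were found for microgravity 3 with static 1 (0.66), microgravity 2 with static 2 (0.46) and microgravity 1 with static 3 (0.38) alone. The numbers were therefore not taken to pair the samples, and the block by replicate number does not follow this pattern. No block that follows it was run.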
